A study of Mus musculus with 6 samples.

Results

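The limb and depot identity transcription factors are 9 genes, *Tbx15*, *Tbx4*, *Tbx5*, *Pitx1*, *En1*, *Shox2*, *Lmx1b*, *Zic1* and *Meis1*, chosen by name among the 19831 genes listed in the RNA sequencing of mouse inguinal adipose tissue (iAT). All 9 were listed. The tissue was taken at postnatal day 6 from 3 wild-type samples and from 3 samples lacking neuropeptide FF receptor-1 (Npffr1-KO). The study's methods name male C57BL/6 mice, kept under SPF conditions, but make no mention of Npffr1-KO animals. The sample labels give neither strain nor sex. The litters, the design of the deletion and whether each sample came from 1 animal are likewise not stated.

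These factors are part of the address that a mesenchymal cell carries from the embryo into adult tissue. In the limb bud, the paired-type homeodomain protein PITX1 and the T-box protein TBX4 act in the hindlimb, while the related TBX5 acts in the forelimb. SHOX2 and the TALE homeodomain protein MEIS1 act in the proximal limb, LMX1B gives the dorsal mesenchyme its identity, and EN1 acts in the ventral ectoderm. Outside the limb, *En1* also labels the embryonic dermomyotome lineage from which dorsal dermis and brown fat arise, *Zic1* is a gene of the dorsal neural tube and somites that is used as a marker of classical brown fat, and *Tbx15* is a marker of brown and subcutaneous fat. The inguinal depot lies at the base of the hindlimb.

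Each genotype has a single value per gene in the deposited table, derived from read counts normalized for library size with DESeq2 and called here the pooled value. It is not the mean of the genotype's own libraries. *Elovl3*, for example, had no wild-type read but a pooled wild-type value of 0.452 normalized counts. The pooled value carries no replicate error. The pooled values of the genotypes are drawn toward each other when reads are few, so they understate differences of low genes. This pull did not depend on the number of reads alone. *Ckm*, a muscle gene with a mean of 36.9, was 1.68-fold higher in Npffr1-KO by the pooled values but 31.3-fold by its reads. Most of those reads lay in a single library. *Acan*, with a mean of 39.6, was 1.53-fold lower by the pooled values and 1.62-fold by its reads. Differences can thus also be understated for genes whose libraries lie far apart. For low genes the whole reads of each of the 6 libraries could be worked out from the pooled values, and they are given wherever possible. The libraries are called A, B and C within each genotype, since they could not be tied to sample numbers. Their size factors lay between 0.916 and 1.04. *Npffr1* itself had 1, 0 and 5 reads in wild-type libraries A, B and C and 0 reads in each Npffr1-KO library, too few to check the labels.

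Positions are those of GENCODE M21 on the mouse build GRCm38. *Tbx15* lies on chromosome 3 from 99240381 to 99354259 on the plus strand, and *Shox2* on the same chromosome from 66971727 to 66981771 on the minus strand. *Meis1* lies on chromosome 11 from 18879817 to 19018985 (minus strand) and *Tbx4* on the same chromosome from 85886422 to 85916097 (plus strand). *Tbx5* lies on chromosome 5 from 119832668 to 119885219 (plus strand) and *Pitx1* on chromosome 13 from 55825051 to 55836192 (minus strand). *En1* lies on chromosome 1 from 120602418 to 120607992 (plus strand), *Lmx1b* on chromosome 2 from 33560965 to 33640511 (minus strand) and *Zic1* on chromosome 9 from 91358058 to 91365810 (minus strand). The members shared few sequences with other genes. Of the words of 31 bases in their transcripts, at most 3.05% occurred in another gene for 8 members. The exception was *Meis1* with 9.51%, shared above all with *Gm37818*, a gene model on the same strand that overlaps 9.77% of its exon bases. *Zic1* overlaps exons of its neighbour *Zic4* on the opposite strand over 1.05%. *Shox2* overlaps exons of *Rsrc1* on the opposite strand over 4.62% of its exon bases, and *Pitx1* overlaps the antisense *Gm47071* over 6.21% and *Gm28760*, on the same strand, over 4.07%. Whether the counting used strand is not stated, so reads in these stretches cannot be assigned with certainty.

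*Shox2* and *Tbx15* were the highest of the members, and *Tbx4* was the lowest. Per kilobase of the listed gene length, the pooled wild-type values were 268 normalized counts for *Shox2* and 200 for *Tbx15*, both above the median of 103 over all listed genes. *Meis1* followed with 88.6 and *En1* with 76.0 normalized counts per kilobase, somewhat below that median. *Tbx5* stood at 21.9 normalized counts per kilobase. *Pitx1*, *Zic1* and *Lmx1b* were lower by about an order of magnitude or more than *En1*, with 5.40, 3.43 and 2.58 normalized counts per kilobase. *Tbx4* had 0.643 normalized counts per kilobase and ranked, before division by length, above 12.8% of the listed genes in wild-type.

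**Figure D1:**
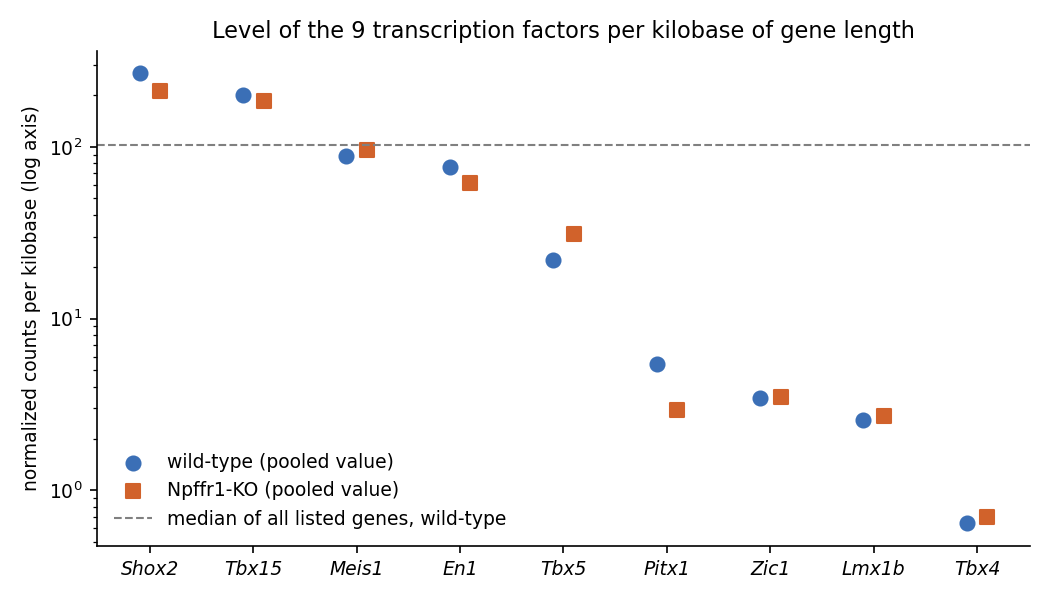
Pooled value of each of the 9 genes in wild-type (circles) and Npffr1-KO (squares) in normalized counts per kilobase on a log axis, ordered by the wild-type value, with the median of all listed genes as a dashed line. *Shox2* and *Tbx15* lie above the line in both genotypes, and the order runs down from 268 for *Shox2* to 0.643 for *Tbx4* in wild-type.

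Where reads per library could be worked out, the order could be read against the spread of the 6 libraries. *Tbx5*, under the combination of reads used for it, ranged from 17.9 to 37.1 normalized counts per kilobase and did not overlap with *Pitx1*, which ranged from 0 to 9.32. *Pitx1* overlapped with *Zic1*, which ranged from 2.34 to 5.33 normalized counts per kilobase. *Zic1* overlapped with *Lmx1b* (0 to 6.27), and *Lmx1b* with *Tbx4* (0 to 1.63). Neighbours in the order among the last 4 thus overlapped, but the lowest library of *Zic1* lay above the highest of *Tbx4*. For *Shox2*, *Tbx15* and *Meis1* no spread is known, and for *En1* none that could bear on the order.

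The promoters of 6 members, *Tbx4*, *Shox2*, *Meis1*, *Lmx1b*, *En1* and *Zic1*, were found in the RefSeq windows of the build GRCm38.p6, which run from 250 bases before to 50 bases after the start of the transcript. Of these, *Shox2*, the member with the highest level, *En1*, the factor set against *Lmx1b* in the limb, and the 2 lowest, *Lmx1b* and *Tbx4*, are shown so that sequence can be set beside level. The bases before the start are printed 5′ to 3′ on the strand of the gene, without bases that fall in an annotated exon, and capitals mark each CG dinucleotide, the site of DNA methylation in mammals. The *Shox2* sequence is chr3:66981772-66982021 (minus strand), that of *En1* chr1:120602237-120602417 (plus strand), that of *Lmx1b* chr2:33641099-33641348 (minus strand), and that of *Tbx4* chr11:85896515-85896764 (plus strand).
Shox2: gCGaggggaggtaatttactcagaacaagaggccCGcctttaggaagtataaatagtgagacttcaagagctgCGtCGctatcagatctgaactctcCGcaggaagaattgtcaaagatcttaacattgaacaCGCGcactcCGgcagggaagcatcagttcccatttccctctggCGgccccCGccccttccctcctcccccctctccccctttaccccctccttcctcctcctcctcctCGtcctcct
En1: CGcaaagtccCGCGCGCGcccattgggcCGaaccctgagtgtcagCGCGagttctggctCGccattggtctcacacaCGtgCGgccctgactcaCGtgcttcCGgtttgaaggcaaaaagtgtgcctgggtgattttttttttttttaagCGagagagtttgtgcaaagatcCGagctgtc
Lmx1b: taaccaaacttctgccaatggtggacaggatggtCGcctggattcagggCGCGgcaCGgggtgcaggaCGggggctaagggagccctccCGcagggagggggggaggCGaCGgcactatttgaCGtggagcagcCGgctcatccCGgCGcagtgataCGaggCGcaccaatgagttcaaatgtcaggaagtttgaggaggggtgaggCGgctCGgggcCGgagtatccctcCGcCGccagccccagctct
Tbx4: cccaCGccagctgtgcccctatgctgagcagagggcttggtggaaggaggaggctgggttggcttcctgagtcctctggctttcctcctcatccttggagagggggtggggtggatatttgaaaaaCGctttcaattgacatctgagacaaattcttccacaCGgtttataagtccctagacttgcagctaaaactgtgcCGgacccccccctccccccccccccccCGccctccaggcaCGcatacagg

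The number of CG dinucleotides did not follow the level of the member. In the whole windows of 300 bases it was 11 for *Shox2*, 15 for *Meis1*, 23 for *En1*, 24 for *Lmx1b*, 31 for *Zic1* and 8 for *Tbx4*, against a median of 7 over all 32851 windows. *Zic1*, among the low members, had more of them than 89.4% of the windows, while *Shox2*, the highest member, had more than 58.6%. The *Tbx4* window lies inside the GENCODE gene, downstream of its first base. The *Lmx1b* window lies wholly outside the GENCODE gene, upstream of its first base at 33640511. These are counts of letters, and methylation was not measured.

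The hindlimb factors were scarce in this iAT. *Tbx4* had a pooled value of 1.90 normalized counts in wild-type against 2.07 in Npffr1-KO. Behind these stood 2, 0 and 3 reads in wild-type libraries A, B and C, and 5, 0 and 2 reads in Npffr1-KO libraries A, B and C. Each genotype thus had a library without a read, and the groups overlapped throughout. The mean was 1.64 ± 1.51 normalized counts (SD, n = 3) in wild-type and 2.33 ± 2.41 (SD, n = 3) in Npffr1-KO, with p = 0.80 in a two-sided exact permutation test. A difference in *Tbx4* was not detectable at this depth.

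*Pitx1*, which acts upstream of *Tbx4* in the hindlimb bud, was the only member whose pooled values were at least 1.5-fold apart. The pooled value was 13.2 normalized counts in wild-type against 7.18 in Npffr1-KO, a log2 ratio of -0.88. It was 1 of the 7 members among the expressed genes, those averaging 10 or more normalized counts over both genotypes. Of all 15309 expressed genes, 5.89% were at least 1.5-fold apart in either direction. *Pitx1* had 7, 18 and 23 reads in wild-type libraries A, B and C, and 10, 0 and 4 reads in Npffr1-KO libraries A, B and C. The summed reads were 48 in wild-type (95% exact Poisson interval 35.4 to 63.6) and 14 in Npffr1-KO (7.65 to 23.5), intervals that cover counting error only. The values were high in wild-type libraries B and C and low in Npffr1-KO libraries B and C, but wild-type library A lay below Npffr1-KO library A, so the groups overlapped. From the reads, the mean was 15.7 ± 8.20 normalized counts (SD, n = 3) in wild-type and 4.67 ± 4.83 (SD, n = 3) in Npffr1-KO, 3.37-fold lower, with p = 0.20 in a two-sided exact permutation test. With 3 against 3 libraries the smallest p this test allows is 0.10, so it cannot pass 0.05. The size of the difference rested on single libraries: the wild-type mean was 2.25-fold higher without Npffr1-KO library B and 7.21-fold higher without Npffr1-KO library A, and in the latter case the groups no longer overlapped. They also did not overlap without wild-type library A, where the wild-type mean was 4.33-fold higher.

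*Tbx5*, the forelimb paralog of *Tbx4*, was the more abundant of the pair. Its pooled value was 86.1 normalized counts in wild-type against 123 in Npffr1-KO, a log2 ratio of 0.51, or 1.42-fold. Per kilobase the wild-type value exceeded that of *Tbx4* by 34.0-fold, and in Npffr1-KO by 44.6-fold. At this level 5 combinations of whole reads matched the pooled values of *Tbx5*, of which 1 had its direction, and that one was used. It gives 95, 72 and 93 reads in wild-type libraries A, B and C, and 127, 102 and 134 reads in Npffr1-KO libraries A, B and C. In normalized counts these were 91.7, 70.5 and 92.3 in wild-type and 122, 103 and 146 in Npffr1-KO, so that all 3 Npffr1-KO libraries lay above all 3 wild-type libraries. The mean was 84.8 ± 12.4 normalized counts (SD, n = 3) in wild-type and 124 ± 21.7 (SD, n = 3) in Npffr1-KO, 1.46-fold higher, with p = 0.10 in a two-sided exact permutation test, the smallest it allows. The direction of the pooled values served to choose the combination and is not independent of this result. The same rule gave the reads of 655 genes with a mean over 60 and up to 110 normalized counts. Of these 655, 24.1% had groups that did not overlap. This share mixes genes with 1 matching combination and genes whose combination was chosen by direction, and is not known for the latter alone. Among all 909 genes at this level, 559 matched 1 combination only and 350 matched several, as *Tbx5* did. When any of the 6 libraries was left out, *Tbx5* was between 1.33-fold and 1.58-fold higher in Npffr1-KO. Groups that do not overlap stay apart without a library, so their separation was not tested by this. In each of the 6 libraries *Tbx5* exceeded *Tbx4*, and its lowest library, at 17.9 normalized counts per kilobase, lay above the highest of *Tbx4*, at 1.63.

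**Figure D2:**
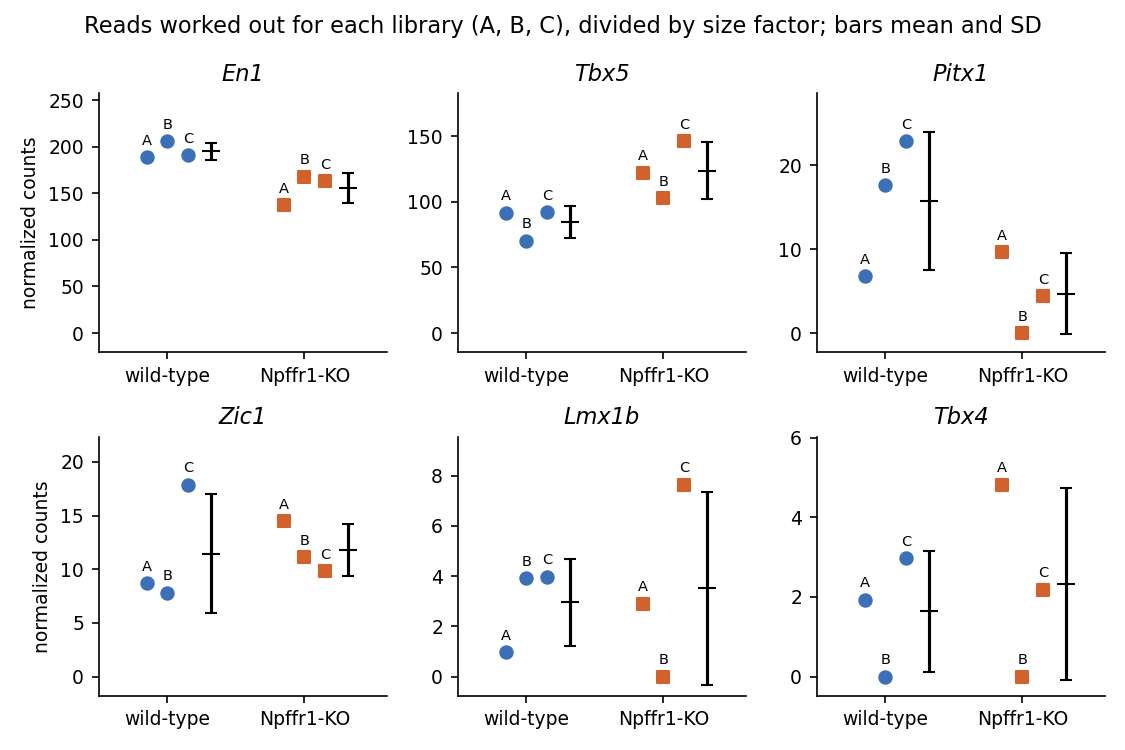
Normalized counts of 6 members in each library (circles wild-type, squares Npffr1-KO, letters A to C naming the library), with the mean and SD of each genotype beside them. For *Tbx5* the 3 Npffr1-KO libraries lie above the wild-type libraries, in the combination of reads picked for the pooled direction among 5 matches. For *En1* they lie below them, in the combination that was picked for even libraries and the pooled direction among 111 matches. The genotypes overlap for *Pitx1*, *Zic1*, *Lmx1b* and *Tbx4*, and Npffr1-KO library B has 0 reads of *Pitx1*, *Lmx1b* and *Tbx4*.

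*Shox2* and *Meis1*, the factors of the proximal limb, were less than 1.5-fold apart between the genotypes. *Shox2* had a pooled value of 703 normalized counts in wild-type against 552 in Npffr1-KO, a log2 ratio of -0.35. The ratio was larger in size in 20.5% of the expressed genes. *Meis1*, whose protein binds DNA together with HOX and PBX proteins, had 304 normalized counts in wild-type against 327 in Npffr1-KO, a log2 ratio of 0.11, and 68.2% of the expressed genes had a larger one. Reads per library were not worked out at these levels, so neither ratio can be set against the spread between samples.

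The dorsal factor *Lmx1b* and the ventral factor *En1* stood far apart in level. *Lmx1b* had 1, 4 and 4 reads in wild-type libraries A, B and C, and 3, 0 and 7 reads in Npffr1-KO libraries A, B and C. The groups overlapped, with a mean of 2.95 ± 1.72 normalized counts (SD, n = 3) in wild-type and 3.51 ± 3.86 (SD, n = 3) in Npffr1-KO, and p = 1 in the two-sided exact permutation test. The pooled values of *Lmx1b* were 3.14 and 3.32 normalized counts, the latter in Npffr1-KO. Its paralog *Lmx1a* was more abundant per kilobase in each of the 6 libraries, with 33.3 normalized counts in wild-type against 33.1 in Npffr1-KO as pooled values.

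*En1* had a pooled value of 194 normalized counts in wild-type against 156 in Npffr1-KO, a log2 ratio of -0.31. Here 111 combinations of reads matched, 54 of them in the direction of the pooled values, and in 1 of these no library exceeded another by more than about 1.5-fold. In every other one the highest library exceeded the lowest by at least 3.35-fold. Under the even combination *En1* had 195, 210 and 192 reads in wild-type libraries A, B and C, and 142, 166 and 149 reads in Npffr1-KO libraries A, B and C. Its mean was then 195 ± 9.39 normalized counts (SD, n = 3) in wild-type and 156 ± 16.5 (SD, n = 3) in Npffr1-KO, and the groups did not overlap. Since the combination was chosen for its even libraries, these spreads and the gap are a description, and no test was made on them.

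*Zic1* was low and nearly equal in the genotypes. Its pooled value was 11.5 normalized counts in wild-type against 11.8 in Npffr1-KO, a log2 ratio of 0.03. There were 9, 8 and 18 reads in wild-type libraries A, B and C, and 15, 11 and 9 reads in Npffr1-KO libraries A, B and C. Both genotypes summed to 35 reads, and the highest library was wild-type library C. The means were 11.5 ± 5.56 (SD, n = 3) in wild-type and 11.8 ± 2.39 normalized counts (SD, n = 3) in Npffr1-KO, with p = 1 in the two-sided exact permutation test. Without wild-type library C the groups did not overlap, and *Zic1* was 1.43-fold higher in Npffr1-KO.

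*Tbx15*, the marker of subcutaneous fat, had a pooled value of 715 normalized counts in wild-type against 659 in Npffr1-KO, a log2 ratio of -0.12. It thus exceeded *Zic1* by 58.1-fold per kilobase in wild-type and by 52.4-fold in Npffr1-KO.

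Together, 4 of the 7 expressed members were lower in Npffr1-KO and 3 were higher, with a median log2 ratio of -0.12. Over all 15309 expressed genes the median was 0.01 and the 10th and 90th percentiles were -0.35 and 0.35. *Pitx1* and *Tbx5* lay outside these percentiles. Of the 4 members averaging at most 25 normalized counts, *Tbx4*, *Pitx1*, *Lmx1b* and *Zic1*, 0 had groups of libraries that did not overlap, against 12.0% of the 3744 genes with a mean between 1 and 25 whose reads were known. No permutation test of these 4 fell below an unadjusted p of 0.20.

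**Figure D3:**
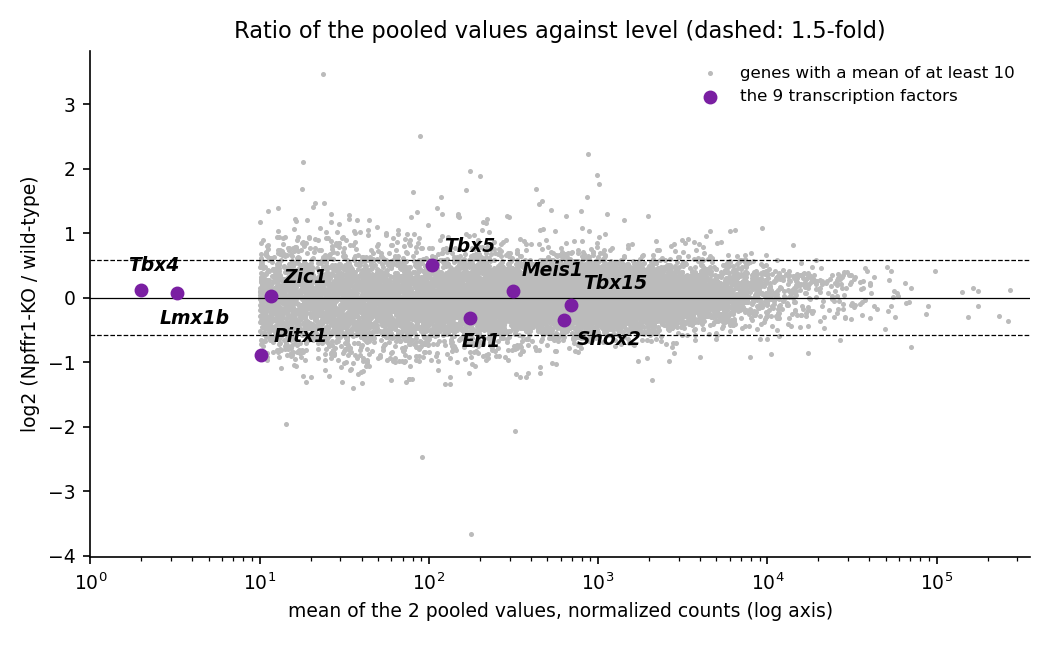
Log2 ratio of the pooled values, Npffr1-KO over wild-type, against the mean of both on a log axis, with the expressed genes in grey, the 9 members as large points and 1.5-fold as dashed lines. *Pitx1*, at -0.88, lies beyond a dashed line, and *Tbx5*, at 0.51, lies just inside the other.

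Npffr1-KO library B held no read of 3 members, *Pitx1*, *Tbx4* and *Lmx1b*. Its size factor of 0.991 lay among those of the other libraries. A count of 0 allows up to 3 reads, or 3.03 normalized counts in this library, which is below each wild-type value of *Pitx1*. Among 589 genes with a mean between 8 and 13 normalized counts, the level of *Pitx1*, 6.79% had a library at 0 and 1.36% had this library at 0. For genes with a mean between 1.5 and 4 normalized counts, the level of *Tbx4* and *Lmx1b*, this library was at 0 in 20.7%. The same library had 11 reads of *Zic1* and 102 of *Tbx5*, so that the missing reads were not shared by all members.

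A further library stood apart by its muscle transcripts. *Ckm*, the muscle creatine kinase, had 215 reads in Npffr1-KO library A and between 1 and 6 reads in the other 5 libraries. Of the 6 skeletal muscle markers, 3 had reads per library, and all 3 were highest in that library, where they summed to 218 normalized counts against 1.01 to 6.55 elsewhere. Nearly all of that sum was *Ckm*. *Myog* had 10 reads and *Myh4* 1 read there, and both had 0 elsewhere. The 4 lowest of the 6 keratinocyte markers also summed highest there, to 35.7 normalized counts against 4.83 to 22.8 elsewhere, with 2 of the 4 highest in that library. This sum left out *Trp63* and *Krt10*, which also had reads per library and were far more abundant. *Trp63* was lowest in Npffr1-KO library A, with 42 reads against 50 to 102 elsewhere. *Krt10* had 80 reads there against 60 to 99 elsewhere. The excess in that library was thus not shared by the more abundant keratinocyte markers. Without Npffr1-KO library A, *Tbx5* was 1.47-fold higher in Npffr1-KO. The pooled values cannot be given without it.

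The tissue carried the transcripts of fat. *Fabp4* and *Lpl*, the highest of 5 white adipocyte markers, had pooled wild-type values of 156285 and 136814 normalized counts, and the 5 markers differed by less than 1.5-fold between the genotypes. All 4 expressed brown adipocyte markers were past 1.5-fold and higher in Npffr1-KO, and the list summed to 1339 normalized counts in wild-type against 4523 in Npffr1-KO. *Cox8b* and *Ucp1* were the highest of them in wild-type, with 460 and 438 normalized counts, and *Elovl3* had reads in 1 library, Npffr1-KO library A. Nerve and Schwann cell markers were lower in Npffr1-KO for all 4 that were expressed, 2 of them past 1.5-fold. Progenitor and fibroblast markers, led by *Col1a1* and *Dcn*, were lower for 5 of 6, with a median log2 ratio of -0.23. The 2 expressed cartilage markers were also lower, with *Acan* at 47.9 and 31.3 normalized counts and *Col2a1* at 41.7 and 28.4. The highest keratinocyte, mammary and mesothelial markers were *Trp63*, *Krt10*, *Krt19*, *Epcam*, *Lrrn4* and *Msln*, with none above 81.2 normalized counts in wild-type, and *Wt1* of the visceral list was not among the listed genes. Of genes of other organs, *Alb* and *Apoa1* were highest, with 414 and 14.5 normalized counts. The lists held no immune cell markers, so lymphoid transcripts were not surveyed. The part of the listed markers in the members' values was not tested, and in whole tissue fewer cells of a type and less RNA per cell cannot be told apart.

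The paralogs of the members showed how far each family was used in this tissue. Of 13 other T-box genes listed, 9 were expressed, and 7 of these were lower and 2 higher in Npffr1-KO, where 51.2% of all expressed genes were higher. The highest were *Mga*, *Tbx2* and *Tbx3*, with 1269, 1046 and 929 normalized counts in wild-type, and *Tbx3*, which acts in the margins of the limb bud, had 674 in Npffr1-KO. Past 1.5-fold were *Eomes*, a T-box factor of lymphocytes and early mesoderm, with 136 normalized counts in wild-type against 252 in Npffr1-KO, and *Tbx6*, a factor of the paraxial mesoderm, with 132 and 80.2. No reads per library were worked out for either. *Pitx3* had 3.40 normalized counts in wild-type, close to *Lmx1b* with 3.14, and *En2* had 1.01. *Zic2* had 5.24 normalized counts in wild-type, and it was the only other *Zic* gene listed. All 8 relatives of *Meis1* in the TALE class were expressed, with 5 lower, 3 higher and 0 past 1.5-fold. Among the highest of them were *Pbx2* and *Pknox1*, with 2111 and 602 normalized counts in wild-type.

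Of 39 other genes of limb and positional patterning, chosen with Hox genes left out, 38 were listed and 25 were expressed. In Npffr1-KO 17 of these were lower and 8 higher, against the 51.2% of all expressed genes that were higher, with a median log2 ratio of -0.12 against 0.01 over all genes. The highest per kilobase in wild-type were *Meox2* with 1179, *Prrx1* with 593, *Meox1* with 466, *Twist1* with 459 and *Twist2* with 446 normalized counts per kilobase, all of them genes of mesenchyme or somites, and none was past 1.5-fold. *Emx2*, a homeobox gene needed for the shoulder blade and the urogenital system, had 143 normalized counts in wild-type against 76.3 in Npffr1-KO, a log2 ratio of -0.91. *Alx4*, a gene of anterior limb bud mesenchyme, had a log2 ratio of -0.73. *Alx4* had 48, 45 and 40 reads in wild-type libraries A, B and C, and 37, 22 and 11 reads in Npffr1-KO libraries A, B and C, groups that did not overlap, as in 18.2% of the 1200 genes with a mean over 25 and up to 60. These 2 were the only expressed genes of the list past 1.5-fold. Of its genes averaging under 10 normalized counts, *Hand2* was 2.12-fold and *Msx2* 1.71-fold higher in Npffr1-KO by the pooled values, and *Pax3* was 1.66-fold and *Dlx5* 1.61-fold lower.

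**Figure D4:**
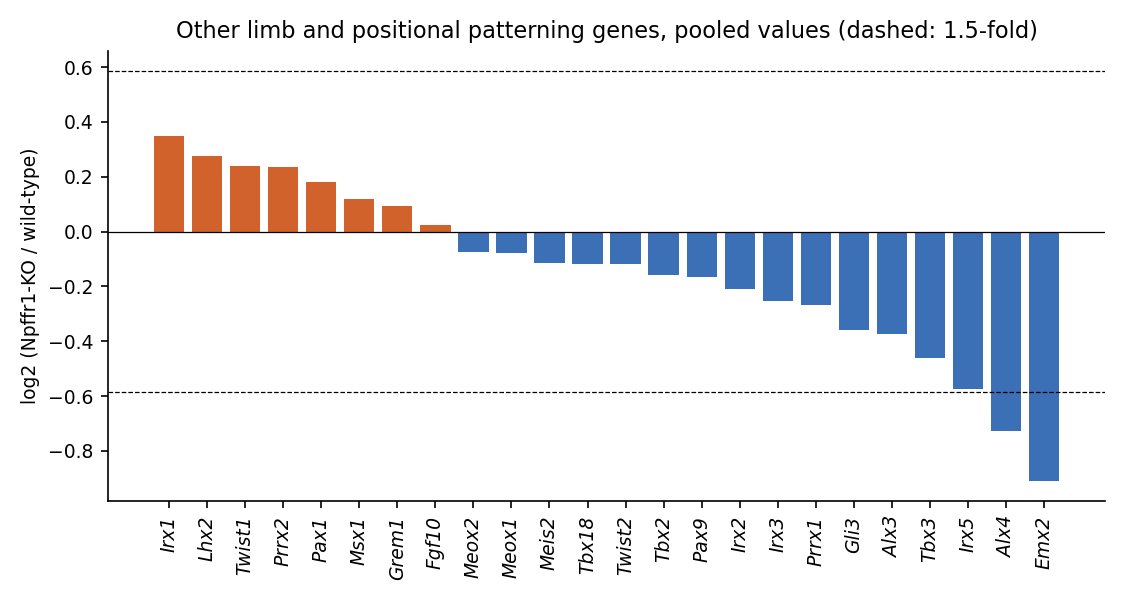
Log2 ratio of the pooled values, Npffr1-KO over wild-type, for 24 of the 25 other patterning genes that were expressed, in descending order, with 1.5-fold as dashed lines. *Emx2* at -0.91 and *Alx4* at -0.73 lie beyond the lower line, and no gene lies beyond the upper one.

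Among the patterning genes with few reads, 13 had a mean between 1 and 25 normalized counts, and 3 of them, 23.1%, had groups that did not overlap, against the 12.0% of all such genes. These 3, and *Dlx5*, were chosen after their values were seen. *Hand2*, a gene of the posterior limb bud, had 2, 0 and 4 reads in wild-type libraries A, B and C, and 5, 14 and 12 reads in Npffr1-KO libraries A, B and C. *Msx2*, a gene of the distal limb bud and of skin appendages, had 5, 4 and 6 reads in wild-type and 19, 6 and 11 in Npffr1-KO, while *Pax3*, a gene of muscle precursors and the neural crest, had 4, 7 and 4 reads in wild-type and 1, 2 and 0 in Npffr1-KO. *Msx2* tied at 6 reads between wild-type library C and Npffr1-KO library B, and its groups were apart only after division by size factors.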

How the data were processed

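RNA sequencing of 3 wild-type and 3 Npffr1-KO samples of iAT was analysed, and groups were taken from the sample titles. The submitters' processing notes name Bowtie2, RSEM and DESeq2, without versions, and no genome build or annotation is stated. The deposited table holds 1 signal value per gene and genotype, made by the authors from read counts normalized for library size, over 19831 genes, with sums of 23137343 (wild-type) and 23640005 (Npffr1-KO). The ratio of the pooled values is the one DESeq2 draws toward 1. The table also holds the authors' log2 fold changes and p-values, which were not used. A shorter deposited table of genes selected by the authors was not used.

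The mean of both pooled values is a sum of whole reads, each worth 1 of 6 amounts, which genes with a single read reveal together with the genotype of the library (the pooled value that is higher). All combinations of whole reads matching within the rounding of the listed values were searched with Python 3.11.15, NumPy 2.4.6 and numba 0.67.0. With means of up to 25, 5627 of 5650 genes had 1 combination, and with means over 25 and up to 60 all 1200 had. The direction of the reads was that of the pooled values for 4772 of 4772 genes with a log2 ratio over 0.1 in size. The search was tested on simulated data. Extending it to 110 normalized counts, by direction, and to *En1* was chosen after seeing the data.

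No test across genes was made, since reads per library were known for low genes only. A gene was counted as apart at a ratio of at least 1.5 between its pooled values and a mean of at least 10, with no pseudocount. Reads per library were compared by two-sided exact permutation tests (SciPy 1.17.1) for 5 members, and p-values measure only the spread between these samples, which may be technical. Named genes are the 9 members; of paralogs, all in families of at most 4 others, otherwise the 3 highest and any past 1.5-fold; of patterning genes, the 5 highest per kilobase and any past 1.5-fold; and of markers, the 2 highest. A few genes that this rule names are not reported here. Members and lists were chosen with earlier results of these data known. Promoters are RefSeq's.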

Additional observations from a re-analysis of the deposited data

How the results depend on the processing

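With a lower threshold, 0.32 on the log2 scale, in place of 1.5-fold, 3 members were apart (*Pitx1*, *Tbx5* and *Shox2*), with a fold of 2 the number was 0, and with a pseudocount of 10 it was 0. A pseudocount of 1 and centring on the median gene or on genes of like length left it at 1. Of 36 log2 ratios of members recomputed with another pseudocount or centring, all 36 lay within the counting interval of the reported value. This interval, worked out from the pooled values, ran from -1.90 to 1.90 for *Tbx4* and from -1.30 to 1.63 for *Lmx1b*. For such low members it could hardly be left. Of the 36 ratios, 1 changed sign, that of *Lmx1b* after centring on length (-0.09). The background share of genes past 1.5-fold was 4.29% for a mean of at least 50 normalized counts. Level percentiles moved beyond counting error in 18 of 25 cases, in which other genes were ranked, the Npffr1-KO value was used or values were divided by length.

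Of the 4 members averaging at most 25 normalized counts, 0 had groups that did not overlap, and in leave-one-out the number lay between 0 and 1. With means of up to 110 it was 1 (*Tbx5*, whose combination was picked by direction). With *En1* as well, whose combination was picked for evenness, it was 2. *Pitx1* no longer overlapped without wild-type library A (4.33-fold lower in Npffr1-KO) or without Npffr1-KO library A, and *Zic1* without wild-type library C (1.43-fold higher). The log2 ratio of *Tbx4* ran from -0.58 without Npffr1-KO library A to 1.27 without wild-type library C, and that of *Lmx1b* from -1.03 without Npffr1-KO library C to 0.84 without Npffr1-KO library B, with 0 groups apart. No paired analysis was possible because the libraries worked out from the table are not tied to sample numbers. Depth limits what can be said of *Tbx4*, *Lmx1b* and *Zic1*, and the spread between libraries, at 3 per genotype, limits *Pitx1*. The missing reads per library limit *Tbx15*, *Shox2* and *Meis1*.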
